A study of Mus musculus with 16 samples.

Results

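The 9 genes described here are the club and secretory airway cell genes Scgb1a1, Scgb3a1, Scgb3a2, Cyp2f2, Aldh1a1, Cbr2, Muc5b, Hp and Sec14l3. They were chosen by symbol from a list of such genes, and all 9 were found among the 23284 gene symbols counted by RNA sequencing in mouse lung tumors. The series holds 9 tumors labelled RPMax-/- (Max null) and 7 labelled RPMaxWT (Max wild-type), all on a mixed 129/SvJ and C57BL/6 background. In both groups, adenovirus carrying CMV-driven Cre recombinase (Ad.CMV.Cre) was given into the trachea to delete the genes. A CMV promoter is not restricted to 1 cell type. Age and sex are not used here. The labels do not spell out RP, which often stands for deletion of Rb1 and Trp53 by Cre, a way to induce small cell lung tumors in mice. They also do not say whether the tumors came from separate mice, so the p-values below measure only the spread between these samples. MAX is the DNA-binding partner of the MYC proteins and of several repressors, and the comparison asks how gene expression differs between tumors with and without it.

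Club cells are secretory cells of the small airways. They release secretoglobins, small proteins that are abundant in the fluid lining the airway, and they carry cytochrome P450 and carbonyl-reducing enzymes that act on inhaled chemicals. They can also divide and give rise to ciliated cells and, after injury, to mucus-making goblet cells. MUC5B is 1 of the gel-forming mucins of airway mucus and is made by club cells and by glands.

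Level is given as CPM (counts per M, or megareads, in genes), scaled between libraries by TMM factors. Reads in genes numbered 8.66 to 15.1 M in Max null tumors and 9.15 to 13.2 M in Max wild-type tumors. Max itself averaged 74.3 ± 5.97 CPM in Max null tumors (SD, n = 9) and 65.7 ± 7.97 CPM in Max wild-type tumors (SD, n = 7). The log2 difference was 0.18 with an SE of 0.11 (adjusted p = 0.281, edgeR quasi-likelihood test), so the gene count does not check the genotype labels. All 15 neuroendocrine markers were measured in these tumors, led by Calca, a neuropeptide gene, at 1698 ± 1145 CPM in Max null tumors (SD, n = 9) and 6279 ± 8215 CPM in Max wild-type tumors (SD, n = 7). Multiply aligned reads took 9.17% to 11.8% of the reads in the Max null libraries and 12.3% to 22.2% in the Max wild-type libraries. The groups did not overlap in this share, and wild-type tumors 7, 4 and 2 had the highest, so this property of the libraries and the genotype cannot be told apart. In whole tumors, fewer cells of a type and less RNA per cell also cannot be told apart.

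Promoter sequence from RefSeq (build GRCm38.p6, the 250 bases before each annotated start) was searched for Cyp2f2, Scgb3a1, Sec14l3, Cbr2 and Aldh1a1 only. Scgb1a1, Muc5b and Hp had no entry in the promoter set used, and Scgb3a2 was left out of the search. The sequence is printed for Cyp2f2, Scgb3a1 and Sec14l3, as 1 enzyme, 1 secretoglobin and 1 lipid-binding protein, to show the letters next to a gene of each kind. Capitals mark matches, on either strand, to CAAGTG (a core of NKX2-1 sites), TGTTTNC (forkhead factors) or TTNNGNAA (C/EBP factors); CACGTG, the E-box that MYC and MAX bind, was searched too. The counts were made on build mm9, so these positions belong to the sequences only.
Cyp2f2, chr7:27119705-27119954, + strand: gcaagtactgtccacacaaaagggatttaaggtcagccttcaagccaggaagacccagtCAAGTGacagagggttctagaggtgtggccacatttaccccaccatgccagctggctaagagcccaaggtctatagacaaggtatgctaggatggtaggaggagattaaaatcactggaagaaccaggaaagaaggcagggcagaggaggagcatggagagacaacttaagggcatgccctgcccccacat
Scgb3a1, chr11:49663345-49663594, + strand: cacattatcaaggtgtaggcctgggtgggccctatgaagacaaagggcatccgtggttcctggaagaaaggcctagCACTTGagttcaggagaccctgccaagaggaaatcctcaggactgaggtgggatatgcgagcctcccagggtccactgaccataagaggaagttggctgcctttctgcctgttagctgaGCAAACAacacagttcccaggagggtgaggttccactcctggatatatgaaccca
Sec14l3, chr11:4064603-4064852, + strand: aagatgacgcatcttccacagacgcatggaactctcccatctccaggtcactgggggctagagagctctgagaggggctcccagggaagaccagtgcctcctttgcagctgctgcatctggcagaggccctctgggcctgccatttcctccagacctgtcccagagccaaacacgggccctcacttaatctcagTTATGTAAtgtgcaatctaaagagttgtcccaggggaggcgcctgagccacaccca
The Cyp2f2 window held 1 NKX2-1 core 191 bases before the start. The Scgb3a1 window held an NKX2-1 core 174 bases before its start and a forkhead match at 55 bases, and the Sec14l3 window held a C/EBP match at 56 bases. Of the windows not printed, that of Cbr2 held a forkhead match, and the 2 of Aldh1a1 held 2 C/EBP matches each and, in 1 of them, an NKX2-1 core. Among 32851 mouse promoters of this length, 11.6% held CAAGTG, 17.8% TGTTTNC and 36.8% TTNNGNAA. CACGTG was in 6.02% of all promoters and in none of the member windows searched. A match describes letters and not bound sites, and a missing match says only that the letters are not in this window.

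Of the 9 genes, Muc5b was the only one called by the test across all genes. It was 5.50-fold higher in Max null tumors. A gene was called when its adjusted p was at most 0.05 in edgeR's quasi-likelihood test with Benjamini-Hochberg adjustment over 14825 genes. By that rule 16% of all genes were called, 7.4% higher and 8.64% lower in Max null tumors, so 1 member of 9 is near the share of genes in general. At an unadjusted p of 0.05, 2 members passed (Muc5b and Cyp2f2), against 32.8% of all genes. None of the 9 members had CPM values that did not overlap between the groups, against 1.58% of all genes. The median log2 difference of the members was 0.72, with 8 of 9 above 0, and that of all genes was -0.03, with 47.6% above 0. Leaving out 1 tumor, the member median ran from 0.28 (without Max null tumor 3) to 0.89 (without wild-type tumor 4). For Scgb1a1, Aldh1a1, Cbr2, Hp and Sec14l3 the Max null median CPM was below the Max wild-type one, and for the other members above it. The members varied together over the tumors, so their signs are not independent.

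**Figure D1:**
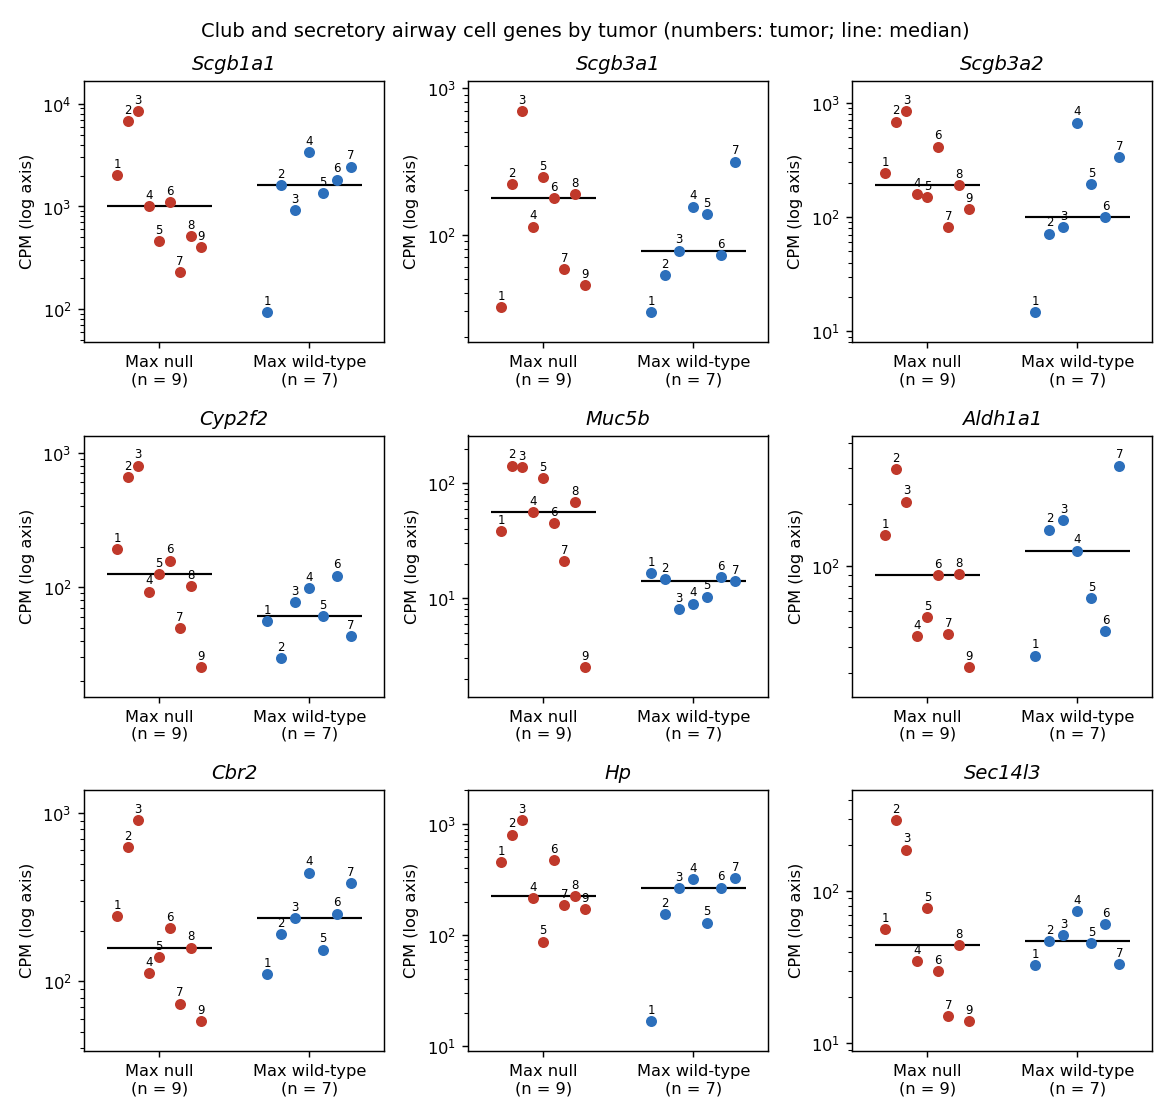
CPM (log axis) of each of the 9 genes in every tumor, Max null on the left (n = 9) and Max wild-type on the right (n = 7); points carry the tumor number and lines mark group medians. The groups overlap in all 9 panels, and in the Muc5b panel 8 Max null tumors lie above every Max wild-type tumor while Max null tumor 9 lies below them all.

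Muc5b measured 2.53 CPM in the lowest Max null tumor, 55.8 CPM in the median one and 143 CPM in the highest, against 7.999, 14.1 and 16.7 CPM in the lowest, median and highest Max wild-type tumors. Max null tumors 2, 3 and 5 were all above 100 CPM, and 8 of the 9 Max null tumors were above every Max wild-type tumor. The exception was Max null tumor 9, where 33 reads placed Muc5b below every Max wild-type tumor. The log2 difference was 2.46 ± 0.54 (SE; 95% interval 1.32 to 3.60; adjusted p = 0.00934, edgeR quasi-likelihood test). The Max wild-type tumors lay within a range of 2.08-fold, whereas the Max null tumors spanned 56.3-fold. The low end of that span was tumor 9 alone, and the next lowest, Max null tumor 7, was at 21.1 CPM. The call was lost with limma-voom quality weights (1.97, adjusted p = 0.120), in edgeR when the share of multiply aligned reads was a covariate (2.13, adjusted p = 0.297) or when wild-type tumors 2, 4 and 7 were left out (2.46, adjusted p = 0.0985).

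Muc5b has the longest exons among the members, 14964 bases against a median of 1345 bases for the 9 genes. Genes called higher in Max null tumors had a median of 5146 exon bases, genes called lower 2123 and all tested genes 3311. In each library, log2 exon length was correlated with the log2 level of a gene minus its mean over all tumors. This r, which describes a library relative to the others, ran from -0.08 to 0.23 in Max null tumors. In Max wild-type tumors it ran from -0.51 to 0.17. With the length trend of each library removed, a setting chosen after seeing the data, Muc5b differed by 1.94 on the log2 scale (adjusted p = 0.0290, edgeR).

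Of the secretoglobins, Scgb1a1 had the highest level per exon length in both groups. This gene of the main secreted protein of club cells measured 229 CPM in the lowest Max null tumor, 1003 CPM in the median one and 8463 CPM in the highest, against 93.3, 1615 and 3365 CPM in the lowest, median and highest Max wild-type tumors. Only Max null tumors 2 and 3 exceeded the Max wild-type range, and wild-type tumor 1 was the lowest of all 16. The log2 difference was 0.49 ± 0.75 (SE; 95% interval -1.09 to 2.06), which did not pass (adjusted p = 0.687, edgeR).

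Scgb3a2, a secretoglobin of airway secretory cells, measured 81.6, 189 and 843 CPM in the lowest, median and highest Max null tumors, against 14.7, 100.01 and 669 CPM in the Max wild-type tumors in that order. Scgb3a1, a secretoglobin of the larger airways, measured 31.9, 176 and 695 CPM in the lowest, median and highest Max null tumors, against 29.5, 77.7 and 315 CPM in the Max wild-type ones. Max null tumor 3 was the highest and wild-type tumor 1 the lowest for both genes, and the groups overlapped over most of their range. The log2 differences were 0.61 ± 0.63 for Scgb3a2 (SE; adjusted p = 0.531) and 0.72 ± 0.58 for Scgb3a1 (SE; adjusted p = 0.409), and neither passed in edgeR's test. Single tumors moved both values: Scgb3a2 differed by 0.28 without Max null tumor 3 and by 1.27 without wild-type tumor 4, and Scgb3a1 by 0.18 without Max null tumor 3 and by 1.16 without wild-type tumor 7. Of 4 other secretoglobin genes in the count tables, 3 were at 0 in every tumor and none was abundant enough to be tested.

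Among the enzymes, Cyp2f2, a cytochrome P450 that activates naphthalene in mouse club cells, had the largest difference. It measured 25.6, 125 and 800 CPM in the lowest, median and highest Max null tumors, against 29.8, 60.6 and 122 CPM in the Max wild-type tumors. In 5 of 9 Max null tumors it was above every Max wild-type tumor, with Max null tumors 2 and 3 far above the rest, and Max null tumor 9 was the lowest of all. The log2 difference of 1.81 ± 0.61 (SE; 95% interval 0.53 to 3.09) narrowly missed the threshold in edgeR (adjusted p = 0.0507). Cyp2f2 passed in 6 of 27 other fits: with DESeq2 (adjusted p = 0.0113), and in edgeR with the length trend removed (adjusted p = 0.0451) or without any 1 of Max null tumors 5, 7 and 9 and wild-type tumor 6 (adjusted p = 0.0303 to 0.0495). It was 1.47 without Max null tumor 2 (adjusted p = 0.0997, edgeR), 1.33 without Max null tumor 3 (adjusted p = 0.102, edgeR), 1.18 with limma-voom (adjusted p = 0.216) and 1.39 with the share of multiply aligned reads as a covariate (adjusted p = 0.558, edgeR). In the GENCODE annotation, 14.7% of the exon bases of Cyp2f2 overlap an antisense gene, and the strand setting of the counting is not given in the sources used here.

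Cbr2, a carbonyl reductase of the lung, measured 57.8, 159 and 907 CPM in the lowest, median and highest Max null tumors, against 110, 238 and 442 CPM in the Max wild-type tumors. Aldh1a1, which oxidises retinal to retinoic acid, measured 32.1, 90.0 and 296 CPM in the lowest, median and highest Max null tumors, against 36.4, 119 and 309 CPM in the Max wild-type ones. For both genes the Max null median was below the Max wild-type median. The log2 differences were 0.15 ± 0.51 for Cbr2 (SE; adjusted p = 0.862) and -0.20 ± 0.49 for Aldh1a1 (SE; adjusted p = 0.810), and neither passed in edgeR's test. Aldh1a1 has a close paralog, Aldh1a7, so the split of reads between them is uncertain.

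Hp encodes haptoglobin, an acute phase protein that binds free haemoglobin and is also made in the airway. It measured 87.3, 224 and 1080.3 CPM in the lowest, median and highest Max null tumors, against 16.8, 265 and 327 CPM in the Max wild-type tumors. Max null tumors 1, 2, 3 and 6 lay above every Max wild-type tumor, and wild-type tumor 1 stood below all others. The log2 difference of 0.96 ± 0.54 (SE; adjusted p = 0.227, edgeR) did not pass. With the log2 CPM of Scgb1a1 added as a covariate, a fit chosen after seeing the data, the difference had the same size with a smaller error (0.96 ± 0.28, SE; adjusted p = 0.0304, edgeR).

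Sec14l3, a lipid-binding protein of the Sec14 family found in airway epithelium, measured 13.9, 44.2 and 294 CPM in the lowest, median and highest Max null tumors, against 32.6, 47.1 and 74.1 CPM in the Max wild-type tumors. The Max null tumors were spread on both sides of the Max wild-type range, 3 above it and 3 below it. The log2 difference of 0.76 ± 0.54 (SE) did not pass (adjusted p = 0.345, edgeR), and it was 0.22 without Max null tumor 2.

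Levels of different genes can be compared only per exon length. In CPM per kb of exon, Scgb1a1 averaged 4889 ± 6452 in Max null tumors (SD, n = 9) and 3487 ± 2211 in Max wild-type tumors (SD, n = 7), the highest of the 9 genes in both groups. Behind it, Scgb3a2, Scgb3a1, Hp, Cbr2 and Cyp2f2 averaged 363, 330, 305, 253 and 131 CPM per kb in Max null tumors, and each neighbouring pair in that order differed by less than the SD. In Max wild-type tumors the order was Scgb3a2 (238 CPM per kb), Cbr2 (228), Scgb3a1 (201), Hp (157), Aldh1a1 (53.6), Cyp2f2 (37.3) and Sec14l3 (18.3). Muc5b was the lowest of the 9 per length, with 4.63 ± 3.38 CPM per kb in Max null tumors (SD, n = 9) and 0.840 ± 0.228 in Max wild-type tumors (SD, n = 7). Summed over the 9 genes, the level was 760 to 13322 CPM in Max null tumors (median 1832) and 406 to 5249 CPM in Max wild-type tumors (median 2326). Scgb1a1 made up 30.2% to 64.5% of that sum in Max null tumors and 22.96% to 69.4% in Max wild-type tumors.

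**Figure D2:**
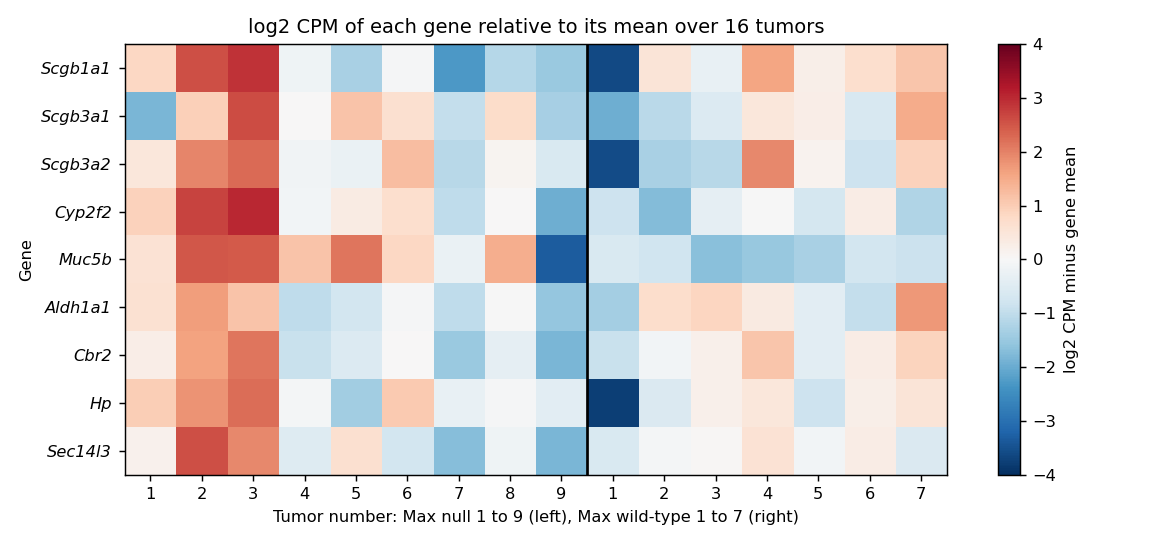
log2 CPM of the 9 genes (rows) in each tumor (columns, Max null 1 to 9 on the left and Max wild-type 1 to 7 on the right), minus the mean of the gene over the 16 tumors; red is above and blue below that mean. Max null tumors 2 and 3 are above the mean for all 9 genes, Max null tumors 7 and 9 and wild-type tumor 1 are below it for all 9, and the Max wild-type part of the Muc5b row is pale to mid blue throughout.

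The 9 genes varied together from tumor to tumor. Max null tumor 3 ranked first of 16 for 6 of the 9 genes and no lower than 3 for the rest, and Max null tumor 2 ranked between 1 and 4 for every gene. Max null tumor 9 was the lowest of the 16 for Cyp2f2, Muc5b, Aldh1a1, Cbr2 and Sec14l3. Wild-type tumor 1 was the lowest for Scgb1a1, Scgb3a1, Scgb3a2 and Hp. The spread over tumors was wide: the SD of log2 CPM over 16 tumors ran from 1.05 (Aldh1a1) to 1.71 (Scgb1a1), which put the members between the 84.7 and the 97.3 percentile of all tested genes.

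Across the 16 tumors, log2 CPM of Scgb1a1 was compared with that of the other 8 genes, and 7 of these relations passed for Pearson's r at an adjusted p of 0.05 (two-sided permutation test, Benjamini-Hochberg over the 8 relations). Cbr2 followed Scgb1a1 most closely (r = 0.87, permutation p = 2e-05, adjusted p = 0.00016; rho = 0.92, permutation p = 1e-05, which is the smallest the permutations can give). Hp (r = 0.84, rho = 0.76), Scgb3a2 (r = 0.83, rho = 0.75), Aldh1a1 (r = 0.76, rho = 0.75) and Sec14l3 (r = 0.73, rho = 0.66) came next, with permutation p of r from 5e-05 to 0.00149 and adjusted p from 0.0002 to 0.00238. Their rho had permutation p from 0.001 to 0.00649 and adjusted p from 0.00252 to 0.0104. For r, these 5 kept their call without the 2 tumors farthest from the median of Scgb1a1, wild-type tumor 1 and Max null tumor 3, with r from 0.66 to 0.90. For rho, Sec14l3 did not pass without them (rho = 0.54, permutation p = 0.0477, adjusted p = 0.0763).

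Cyp2f2 (r = 0.63, permutation p = 0.00957, adjusted p = 0.0128; rho = 0.50, permutation p = 0.0525, adjusted p = 0.0700) and Scgb3a1 (r = 0.58, permutation p = 0.0170, adjusted p = 0.0194; rho = 0.48, permutation p = 0.0627, adjusted p = 0.0717) passed for r and not for rho. Without those 2 tumors r was 0.52 for Cyp2f2 (permutation p = 0.0562) and 0.26 for Scgb3a1 (permutation p = 0.378), and neither passed. Those tumors held the lowest and the highest Scgb1a1, so leaving them out also narrows the range over which r is taken. Muc5b did not pass (r = 0.31, permutation p = 0.243; rho = 0.17, permutation p = 0.524), and without the same tumors its r was 0.14.

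Within the 9 Max null tumors, r with Scgb1a1 ran from 0.52 (Scgb3a1) and 0.58 (Muc5b) to 0.94 (Cbr2 and Scgb3a2), and Cyp2f2 reached 0.92 (exact permutation p = 0.000659, adjusted p = 0.00176). Within the 7 Max wild-type tumors, r was 0.14 for Cyp2f2 (exact permutation p = 0.761) and -0.37 for Muc5b (exact permutation p = 0.476). In that group Hp reached 0.94, Scgb3a2 0.89, Cbr2 0.82, Scgb3a1 0.75, Aldh1a1 0.60 and Sec14l3 0.58, of which Scgb3a2 and Cbr2 passed after adjustment (exact permutation, adjusted p = 0.0238 for each). The difference between the groups in these correlations was not tested.

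**Figure D3:**
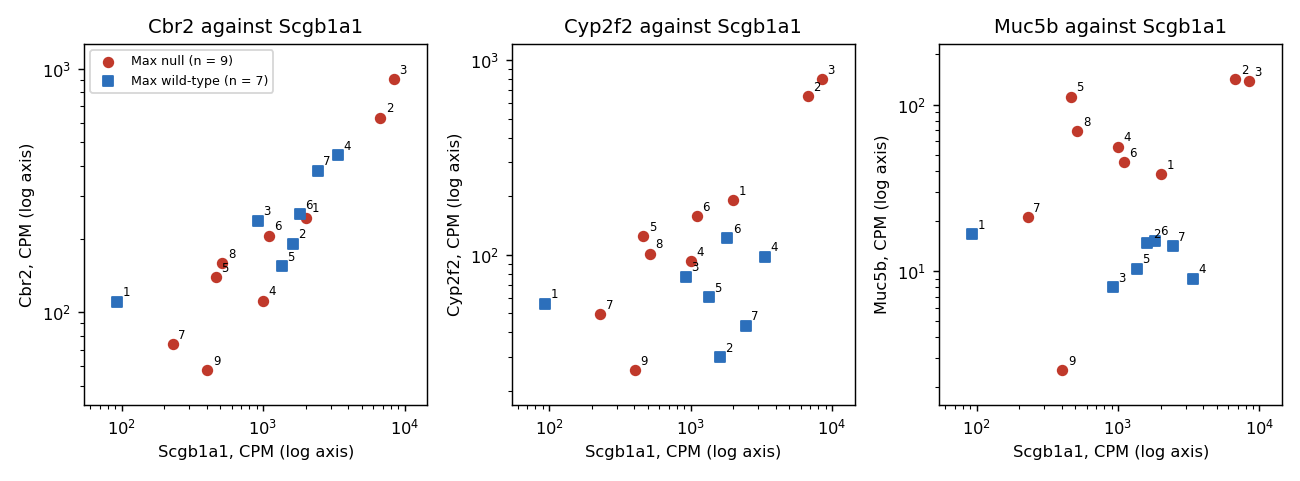
CPM of Cbr2, Cyp2f2 and Muc5b (vertical, log axis) against CPM of Scgb1a1 (horizontal, log axis) in the same tumor; red circles are Max null tumors (n = 9) and blue squares Max wild-type tumors (n = 7), with tumor numbers. Cbr2 follows Scgb1a1 in both groups, Cyp2f2 does so in Max null tumors (r = 0.92 against 0.14 in Max wild-type tumors), and Muc5b in Max wild-type tumors stays between 7.999 and 16.7 CPM at any level of Scgb1a1.

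Taking all 36 pairs of members, the median r was 0.83 within Max null tumors, 0.53 within Max wild-type tumors and 0.63 over the 16 tumors. All 36 pairs were above 0 in Max null tumors and 26 of 36 were in Max wild-type tumors. In the 7 Max wild-type tumors, where Muc5b spanned only 2.08-fold, Muc5b had a negative r with each of the other 8 genes, from -0.34 to -0.54. Of these, only the r with Scgb1a1 was tested, and it did not pass (exact permutation p = 0.476). For comparison, the median r of Scgb1a1 with all other tested genes was 0.02 over the 16 tumors. These values are descriptions over libraries that also share depth and composition.

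**Figure D4:**
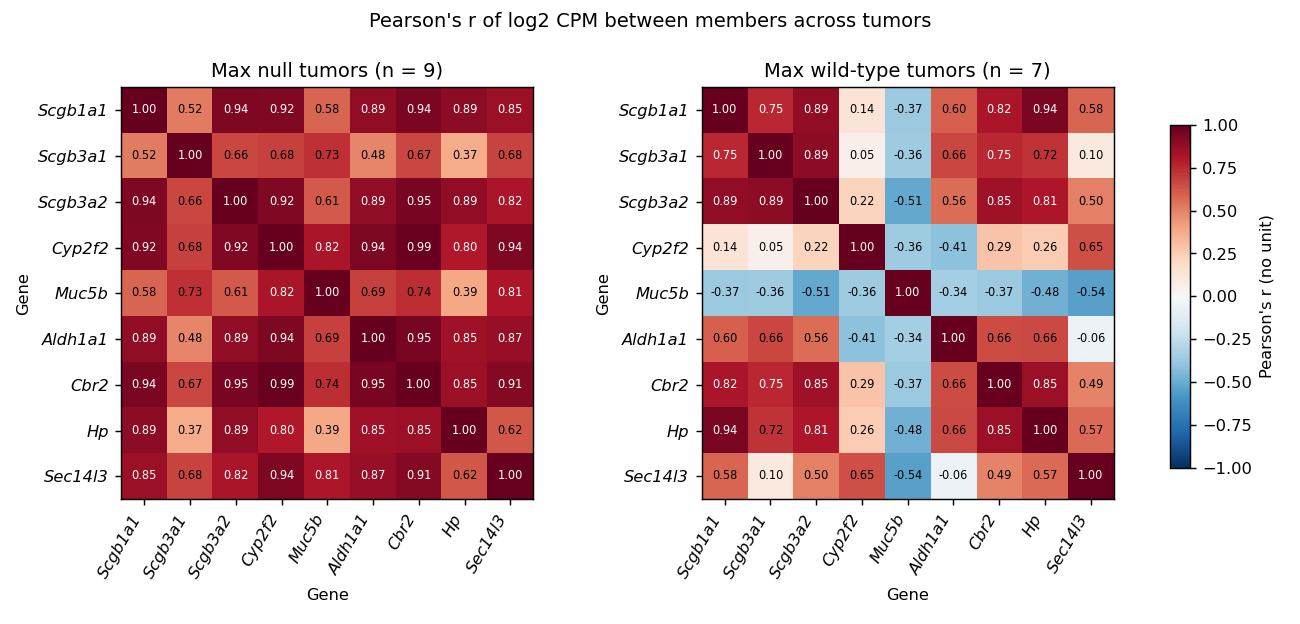
Pearson's r of log2 CPM between each pair of the 9 genes, within the 9 Max null tumors (left) and the 7 Max wild-type tumors (right); red is positive and blue negative, and each cell prints its r. Every cell is positive in Max null tumors, and the Muc5b row and column are negative in Max wild-type tumors apart from the diagonal.

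Set against Scgb1a1 in the same tumor, Muc5b gave 6.27, 40.7 and 240 CPM per 1000 CPM of Scgb1a1 in the lowest, median and highest Max null tumors, against 2.67, 8.35 and 179 in the Max wild-type tumors. The Max wild-type value of 179 came from tumor 1, where Scgb1a1 was lowest, and the groups overlapped. With the log2 CPM of Scgb1a1 as a covariate, added after seeing the data, Muc5b remained called, with a log2 difference of 2.30 (adjusted p = 0.0108, edgeR).

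The genes whose log2 CPM was most like that of Scgb1a1 over the 16 tumors, among those with a mean of at least 1 CPM, were Gsta3 (r = 0.90), Sult1a1 (0.89), Sfta2 (0.88), Cldn10 (0.88), Gstk1 (0.86), Selenbp1 (0.85), Mgst1 (0.85), Meig1 (0.85), Gsta4 (0.85) and Tsc22d1 (0.84). Gsta3, Gsta4, Gstk1 and Mgst1 encode glutathione transferases, and Sult1a1 a sulfotransferase. Cyp2f2 was most like Cp, which encodes ceruloplasmin (r = 0.96), Aldh3a1 (0.93) and Aox3 (0.91). Muc5b was most like Dmbt1, which encodes a secreted scavenger receptor protein of mucosal surfaces (r = 0.94), Cd177 (0.87) and Acox2 (0.86). Dmbt1 averaged 28.7 CPM in Max null tumors and 2.71 CPM in Max wild-type tumors, and its r with Muc5b was 0.98 within Max null tumors and -0.29 within Max wild-type tumors. Hp was most like Gstt3 (r = 0.95), Sfta2 (0.95) and Tspan11 (0.95), Cbr2 most like Gsta4 (0.91), Gsta3 (0.89) and Clic3 (0.87), and Sec14l3 most like Lrrc23 (0.91), Iqca (0.91) and Cyp4b1 (0.90). Scgb3a2 was most like Traf1 (r = 0.90), Aldh3b1 (0.90) and Tymp (0.89), Aldh1a1 most like Ddrgk1 (0.85), Zfp444 (0.85) and Pla2g1b (0.84), and Scgb3a1 most like Batf (0.78), Whrn (0.76) and Clec3b (0.76).

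Of 27 other club cell genes tested, 3 were called higher, 1 was called lower and 23 were not called, with a median log2 difference of 0.42. Of all tested genes, 7.4% were called higher and 8.64% lower. These shares apply to the counts in the lists that follow as well. Gsto1, a glutathione transferase, rose to a median of 38.6 CPM in Max null tumors, against 13.4 CPM in Max wild-type tumors (log2 difference 1.53 ± 0.32, SE; adjusted p = 0.00711, edgeR). Lrp2 (1.98 ± 0.45, SE), an endocytic receptor, and Chad (2.10 ± 0.59, SE) rose as well. Cyp2a5, a cytochrome P450, fell by 2.85 ± 0.77 on the log2 scale (SE; adjusted p = 0.0220, edgeR), with a median of 1.96 CPM in Max null tumors and 8.87 CPM in Max wild-type tumors. All 27 genes correlated positively with Scgb1a1 over the 16 tumors, with a median r of 0.66. Without wild-type tumor 7, Chad (adjusted p = 0.0546) and Cyp2a5 (adjusted p = 0.0524) were not called in edgeR.

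Of 23 goblet and mucous cell genes tested, 4 were called higher, none lower and 19 were not called. The median log2 difference was 0.48, with 18 of 23 above 0. Clca1 (-1.08), Lcn2 (-0.76), Spdef (-0.48), Creb3l4 (-0.35) and Fcgbp (-0.22) were below 0, and none of them was called. Muc5ac, the other gel-forming mucin of the airway, measured 1.23, 4.32 and 12.5 CPM in the lowest, median and highest Max null tumors, against 0.467, 1.30 and 2.15 CPM in the Max wild-type tumors. Muc5ac rose by 2.01 ± 0.47 on the log2 scale (SE; adjusted p = 0.0114, edgeR). Per length its mean was 0.496 CPM per kb in Max null tumors and 0.123 CPM per kb in Max wild-type tumors, below that of Muc5b in both groups. Muc4, a membrane mucin (1.53 ± 0.41, SE; adjusted p = 0.0225, edgeR), and St6galnac1, a sialyltransferase that acts on mucins (1.47 ± 0.47, SE; adjusted p = 0.0425, edgeR), rose too. St6galnac1 was low, with medians of 1.39 CPM in Max null tumors and 0.331 CPM in Max wild-type tumors. Ano1, a chloride channel of secretory epithelia, had values that did not overlap, at 19.6 to 62.2 CPM in Max null tumors and 7.60 to 19.4 CPM in Max wild-type tumors (1.35 ± 0.25, SE; adjusted p = 0.00414, edgeR). St6galnac1 was not called when any 1 of wild-type tumors 2, 4, 5, 6 and 7 was left out (adjusted p up to 0.0826, edgeR).

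Of 20 airway transcription factors tested, 1 was called higher: Cebpa, a C/EBP factor of secretory and alveolar cells, with medians of 82.7 CPM in Max null tumors and 42.7 CPM in Max wild-type tumors (log2 difference 1.09 ± 0.34, SE; adjusted p = 0.0379, edgeR). The other 19 were not called. Cebpa lost its call without any 1 of Max null tumors 1, 2, 3, 6 and 8 and wild-type tumors 2, 4, 5 and 6 (adjusted p up to 0.0693, edgeR). Of 16 other retinoid and aldehyde enzymes, 1 was called higher, Aldh3a1 (1.92 ± 0.60, SE; adjusted p = 0.0392, edgeR), an aldehyde dehydrogenase, and 15 were not called. Aldh3a1 lost its call without any 1 of Max null tumors 1, 2 and 3 and wild-type tumors 1, 2, 4, 5 and 7 (adjusted p up to 0.0781, edgeR). Of 15 acute phase genes, 4 were called higher and 11 were not called, against 7.4% of all tested genes called higher. The called genes were C3 (1.32 ± 0.33, SE), the central complement component, Fga (2.45 ± 0.67, SE), a fibrinogen chain, Cp (1.32 ± 0.38, SE) and Itih4 (1.64 ± 0.48, SE), with adjusted p from 0.0156 to 0.0312 in edgeR's test. Fga was low, with medians of 3.08 CPM in Max null tumors and 0.491 CPM in Max wild-type tumors. Cp was not called without any 1 of Max null tumor 2 and wild-type tumors 2, 4 and 7 (adjusted p up to 0.0576), nor Itih4 without any 1 of Max null tumors 3 and 6 and wild-type tumors 2 and 7 (adjusted p up to 0.0638).

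**Figure D5:**
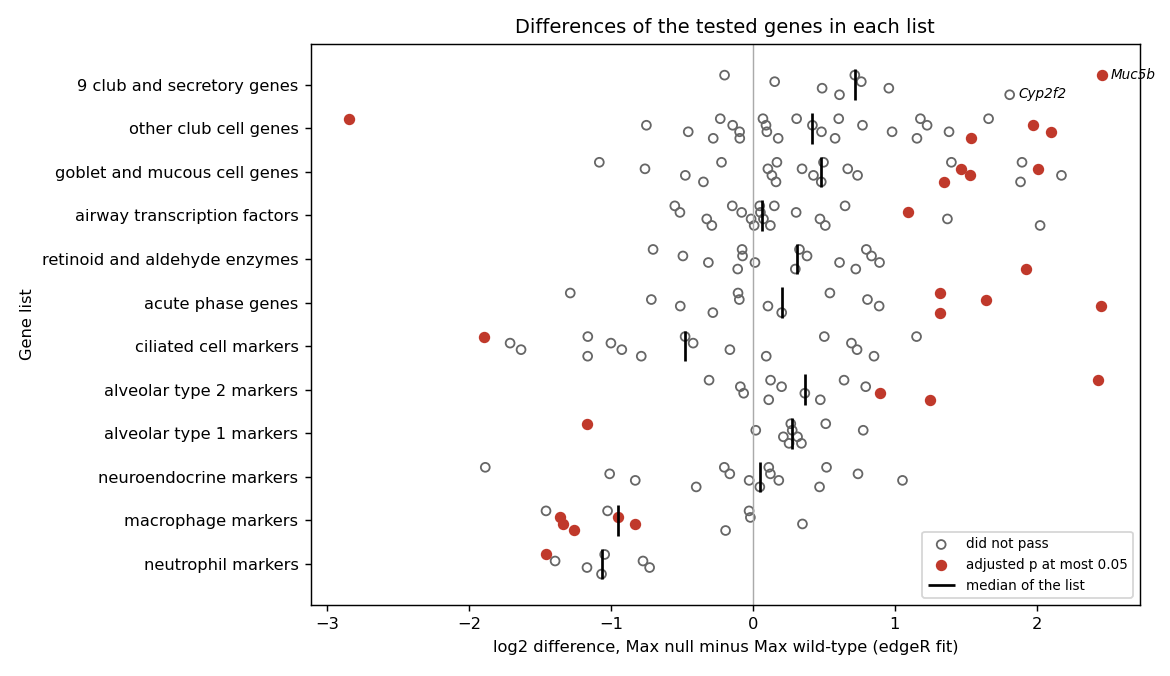
Fitted log2 difference, Max null minus Max wild-type (horizontal), of each tested gene in 12 lists (rows); filled points passed an adjusted p of 0.05, open points did not, and black bars are list medians. Muc5b is the only filled point among the 9 genes, and the called macrophage and neutrophil markers all lie below 0.

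Markers of other cells that a lung tumor sample can hold moved as follows, where 7.4% of all tested genes were called higher and 8.64% lower. Of 17 ciliated cell markers, none was called higher and 1 lower (1110017D15Rik, which lost its call in 10 of the 16 fits without 1 tumor), with a median log2 difference of -0.48. Their summed level was 37.1 to 297 CPM in Max null tumors and 107 to 334 CPM in Max wild-type tumors, and their median r with Scgb1a1 was 0.58. Of 13 alveolar type 2 markers, 3 were called higher (Abca3 1.25, Hc 2.43 and Lpcat1 0.89 on the log2 scale) and none lower. The list median was 0.37, with 10 of 13 above 0. The surfactant genes Sftpc (-0.09) and Sftpa1 (-0.07) and Lyz1 (-0.31) were below 0 and not called. The alveolar type 2 sums were 869 to 3615 CPM in Max null tumors and 233 to 2473 CPM in Max wild-type tumors. Their median r with Scgb1a1 was 0.51. Of 10 alveolar type 1 markers, none was called higher and 1 lower (Pdpn). Pdpn was the only one below 0, with 9 of 10 above 0 and a list median of 0.27. The alveolar type 1 sums were 347 to 1053 CPM in Max null tumors and 222 to 627 CPM in Max wild-type tumors. Their median r with Scgb1a1 was 0.57. Leaving out 1 tumor ended the call of Lpcat1 (Max null 6, or wild-type 2, 4 or 7; adjusted p up to 0.0656) and of Pdpn (Max null 1, 4, 6, 7 or 8, or wild-type 4 or 7; adjusted p up to 0.0660) in edgeR. The ciliated and alveolar lists varied with Scgb1a1 over the tumors, and their part in the results for the 9 genes was not tested.

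Of 15 neuroendocrine markers none was called, and their median r with Scgb1a1 was 0.05. Their sums overlapped, at 5049 to 9628 CPM in Max null tumors and 4858 to 28884 CPM in Max wild-type tumors. Of 11 macrophage markers, 5 were called lower, against 8.64% of all tested genes. Among them were C1qb (-1.26), C1qc (-1.34), Cd68 (-0.83) and C1qa (-0.95 on the log2 scale). The macrophage sums were 279 to 557 CPM in Max null tumors and 362 to 951 CPM in Max wild-type tumors. The median r of the macrophage markers with Muc5b was -0.44. Of 7 neutrophil markers, 1 was called lower, Cxcr2, which fell by 1.46 on the log2 scale (sums of 18.5 to 67.6 CPM in Max null tumors and 37.2 to 112 CPM in Max wild-type tumors). C1qa lost its call without any 1 of Max null tumors 1, 2 and 4 and wild-type tumors 4, 5 and 7 (adjusted p up to 0.0668), and Cd68 without wild-type tumor 7 (adjusted p = 0.0503), in edgeR. The part of these lists in the difference of Muc5b was not tested.

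Basal cell markers were scarce: 3 of 7 were abundant enough to be tested, Krt5 and Trp63 averaged below 1 CPM in both groups, and 1, Krt17, was called lower. Its Max wild-type mean of 17.6 CPM rested on a tumor at 98.0 CPM, and Krt17 was not called without wild-type tumor 4 (adjusted p = 0.137, edgeR). Its median was 0.303 CPM in Max null tumors and 0.900 CPM in Max wild-type tumors. None of 2 liver cell, 10 endothelial and 10 fibroblast markers tested was called, and 1 of 3 fat cell markers was called lower (Fabp4), a call lost without wild-type tumor 4 (adjusted p = 0.0658, edgeR). Over all these lists, 27 genes were called, a smaller share than the 16% of all tested genes. None was called with the share of multiply aligned reads as a covariate, and 2 were without wild-type tumors 2, 4 and 7. With limma-voom, Chad (adjusted p = 0.0900), Aldh3a1 (adjusted p = 0.234), Cp (adjusted p = 0.0726) and Krt17 (adjusted p = 0.187) were not called. With the length trend removed, Cp, 1110017D15Rik, Pdpn, Cd68, C1qa and Fabp4 were not called, St6galnac1 was not with Scgb1a1 as a covariate, and St6galnac1 and 1110017D15Rik were not with no filter on low counts.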

How the data were processed

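The authors deposited whole-number counts of reads per gene symbol, 1 table per tumor. Per the labels' protocols, the libraries were made from total RNA isolated with TRIZOL. Per the submitters' processing notes, HTSeq 0.6.1, TopHat, TopHat2 2.0.12 and bcl2fastq 1.8.4 were used with build mm9. No role is named for them, and no annotation or strand setting. The 5 closing totals of HTSeq, 29.2% to 32.9% of reads in Max null and 32.8% to 45.6% in Max wild-type files, stayed out of library sizes and tests. No library pair agreed within sampling noise (smallest chi-square per degree of freedom 31.2 of 120 pairs).

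Counts were fitted for all genes kept by filterByExpr (14825) with edgeR 4.0.16 in R 4.3.3 (TMM, quasi-likelihood F test, Benjamini-Hochberg, threshold 0.05). Log2 CPM for correlations used a prior count of 2. A positive difference means a higher level in Max null tumors. The members and gene lists were chosen with earlier results of these data known, so counts over them are descriptions. The naming rule took all members and the genes with the highest r with each member. From each other list it took up to 4 called genes by smallest p, or up to 2 by highest mean. Dmbt1, the low basal markers and the goblet and alveolar type 2 genes below 0 were described further after their values were seen. The single result of 1 gene is not reported here. Exon lengths came from a GRCm38 annotation. The fit was tested on simulated data. Alternatives were other size factors, DESeq2 1.42.0, limma-voom 3.58.1, filters (none, or at least 5 CPM in at least 7 tumors), the tumor number as a block, library covariates and leaving out tumors.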

Additional observations from a re-analysis of the deposited data

Results flagged for a closer look

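Scgb3a1 in Max null tumor 3 stood apart from its group, at 695 CPM, with a gap to the next tumor that was large for a group of 9. Of 18 groups examined (9 genes in each of the 2 genotypes), this was the only one with such a tumor. Chance marks about 1 group in 20 where values are normally distributed. The gap was measured on CPM and not on log2 CPM, so that rate may not hold here. The same tumor ranked first of 16 for Scgb1a1, Scgb3a2, Cyp2f2, Cbr2 and Hp as well. Without it, the log2 difference of Scgb3a1 was 0.18, against 0.72 with all tumors, and neither passed in edgeR's test.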

How the results depend on the processing

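Against 2378 called genes, 1 called member and 27 called genes in the other lists, DESeq2 gave 3612, 2 and 44. The replicate block gave 318 genes and 8 list genes with the same 1 member, Muc5b (2.40, adjusted p = 0.0356). The multiply aligned share as a covariate gave 10, 0 and 0, and leaving out wild-type tumors 2, 4 and 7 gave 256, 0 and 2. Members called were 0 with limma-voom, and 2 each with Scgb1a1 as a covariate and with the length trend removed. Leaving out 1 tumor gave 1471 to 3033 genes (lowest without wild-type tumor 4, and 1555 without wild-type tumor 7), 1 to 2 members and 15 to 36 list genes. Tumor numbers showed no clear pairing of the groups: same-numbered tumors had r from -0.17 to 0.24, 2 of 7 above 0.1, and 1 of 7 correlated best with its own number.

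Called lower, Krt17 was 0.10 and not called when the multiply aligned share was a covariate. Differences that did not pass changed sign in places. These were Scgb1a1 -0.12, Aldh1a1 0.13, Cbr2 -0.090, Sec14l3 -0.10 and Ttr 0.39 with voom, Aldh1a1 0.018 and Ttr 0.068 with the replicate block, Aldh1a1 0.46 and Ttr 0.35 with the multiply aligned share, Aldh1a1 0.47 and Ttr 0.71 without the 3 wild-type tumors, Vwf 0.019 with no filter, Cbr2 -0.26 with Scgb1a1 as a covariate and Ttr 0.15 with the length trend removed. Leaving out 1 tumor, the ranges were -0.083 to 0.76 for Scgb1a1, -0.31 to 0.34 for Cbr2, -0.53 to 0.17 for Aldh1a1, -0.44 to 0.18 for Vwf, -0.94 to 0.086 for Ttr and -0.22 to 0.13 for Pecam1. Muc5b kept its direction in all 27 alternative fits (1.94 to 2.62) and was called in 24.

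For correlations with Scgb1a1, r within Max null tumors was 0.52 for Scgb3a1, below the threshold. Within Max wild-type tumors, r was 0.75 for Scgb3a1, 0.14 for Cyp2f2, 0.60 for Aldh1a1, 0.94 for Hp and 0.58 for Sec14l3, none passing, and -0.37 for Muc5b, which reversed. Without the 2 farthest tumors, r was 0.26 for Scgb3a1 and 0.52 for Cyp2f2. Leaving out 1 tumor, r was 0.45 to 0.69 for Scgb3a1, not passing without Max null tumor 3 or wild-type tumor 1, and 0.50 to 0.69 for Cyp2f2, not passing without Max null tumor 3. The causes were not tested.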
